A study of Mus musculus with 6 samples.

Results

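The sarcoplasmic reticulum is the calcium store of the muscle fiber, and 10 genes of its calcium pumps, pump inhibitors, luminal buffers, release channel and junction proteins were examined in mouse gastrocnemius muscle after loss of its nerve. The members were the genes Sln, Pln, Atp2a1, Atp2a2, Casq1, Casq2, Ryr1, Jph1, Jph2 and Trdn. They were chosen by name, with earlier results of these data known. Every array probe that the platform annotation assigned to one of them was taken. This gave 15 of 25697 probes, and 10 of the 16593 genes that the annotation named. Muscle came from adult male mice whose left sciatic nerve had been interrupted by removing a short piece 14 days before, and the innervated right gastrocnemius was the control. Each group held 3 samples, and each sample was read on 1 Illumina bead array, which measures a transcript as the brightness of beads that carry a matching probe. The strain is not given in the sources used here. They also do not say which samples came from the same mouse, so that p-values describe no more than the variation among the 3 samples of a group.

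In resting muscle, the calcium pumps of the reticulum (SERCA pumps, encoded by Atp2a genes) move calcium out of the cytosol into the store, where calsequestrins bind it. On excitation, the voltage sensor of the T-tubule opens the ryanodine receptor and calcium leaves the store to start contraction. Junctophilins hold the T-tubule and the reticulum together at the triad, triadin links the release channel with calsequestrin, and the small membrane proteins sarcolipin and phospholamban slow the pump.

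The calcium stores of fast and slow fibers differ in part in the gene copies they use, of which the calsequestrins are an example. The bases before the start sites of both calsequestrin genes are shown because this pair of genes is compared directly below. Sequences are from RefSeq (GRCm38.p6), 250 bases upstream of the annotated start and read 5′ to 3′ on the strand of the gene. Casq1 lies on the minus strand (chr1:172219896-172220145) and Casq2 on the plus strand (chr3:102086165-102086414). Capitals mark the E-box CANNTG, the letters bound by myogenic factors, and matches to the MEF2 motif.
Casq1: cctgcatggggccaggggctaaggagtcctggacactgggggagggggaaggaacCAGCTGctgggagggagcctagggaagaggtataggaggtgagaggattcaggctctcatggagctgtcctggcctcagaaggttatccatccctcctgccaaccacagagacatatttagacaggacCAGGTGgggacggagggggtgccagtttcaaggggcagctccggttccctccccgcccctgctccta
Casq2: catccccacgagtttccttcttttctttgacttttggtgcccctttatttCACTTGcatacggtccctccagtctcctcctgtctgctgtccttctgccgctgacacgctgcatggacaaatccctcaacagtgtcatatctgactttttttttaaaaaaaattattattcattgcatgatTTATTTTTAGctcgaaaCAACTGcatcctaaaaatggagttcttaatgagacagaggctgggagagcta
Each window held 2 E-boxes, CAGCTG and CAGGTG in Casq1 and CACTTG and CAACTG in Casq2. Both strands were searched and no motifs overlapped. An E-box was present in 66.2% of 32851 such windows, with a median of 1 site per window. The Casq2 window also held 1 match to the MEF2 motif and the Casq1 window 0, where 2.92% of all windows held one. These matches describe letters, and binding was not measured.

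Signal brightness was similar within groups but not between them. The 95th percentile of the deposited signal was 4000 to 4048 on the denervated and 2896 to 3022 on the control arrays. Changes below are therefore given after quantile normalization unless the deposited signal is named. The numbers of probes brighter than the negative controls overlapped, at 12150 to 12785 on the denervated and 11551 to 12469 on the control arrays. The arrays shared 1 chip with the groups in separate stretches, and position and group cannot be told apart. The muscle genes Acta1 and Ckm were near the scanner ceiling on all arrays, and of 4 other muscle identity genes with a fold 1 was called higher and 1 lower. Macrophage markers were called higher in 8 of 8 measured genes, and their summed signal was 12138 to 15310 in denervated and 4253 to 4596 in control muscle. Called lower were 4 of 5 endothelial, 4 of 5 smooth muscle and pericyte and 2 of 3 Schwann cell markers, with 1 Schwann marker called higher. Of the remaining lists, fibroblast (2 higher and 1 lower of 5), adipocyte (0 and 1 of 2), satellite cell (1 and 1 of 2) and erythrocyte markers (0 and 1 of 3) were mixed or few. Summed signals of the denervated and control arrays were 7809 to 8132 and 7035 to 9424 for endothelial, 8169 to 11625 and 9369 to 13090 for smooth muscle, 3424 to 4072 and 4763 to 10825 for Schwann cell and 39580 to 45366 and 28676 to 34927 for fibroblast markers. In whole muscle, fewer cells of a type and less RNA per cell cannot be told apart, and the part of these cell types in the results below was not tested.

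Of the 15 probes, 13 were above background on at least 3 arrays and entered the fit across all 12546 such probes. They covered 8 of the 10 genes. The probe of Atp2a1 was near the ceiling on every array and has no fold. Among the other 12 probes, 1 was called higher and 7 lower in denervated muscle at an adjusted p under 0.05, and 4 were not called. Of all probes in the fit, 42.9% were called, 21.9% as higher and 21.0% as lower. By the brightest probe of each gene, Sln was called higher, Atp2a2, Casq1, Casq2, Jph1 and Jph2 lower, and Ryr1 was not called, where 43.8% of all 8740 genes were called, 22.2% as higher and 21.6% as lower. The normalized values of the 2 groups did not overlap for 8 of the 13 probes, as for 53.6% of all probes. The share of lower calls among these members was above that background, while the share of probes that did not overlap was close to it. Atp2a2 and Jph2 entered the lower calls with both of their probes. Since the members were chosen with earlier results of these data known, these shares are a description.

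**Figure D1:**
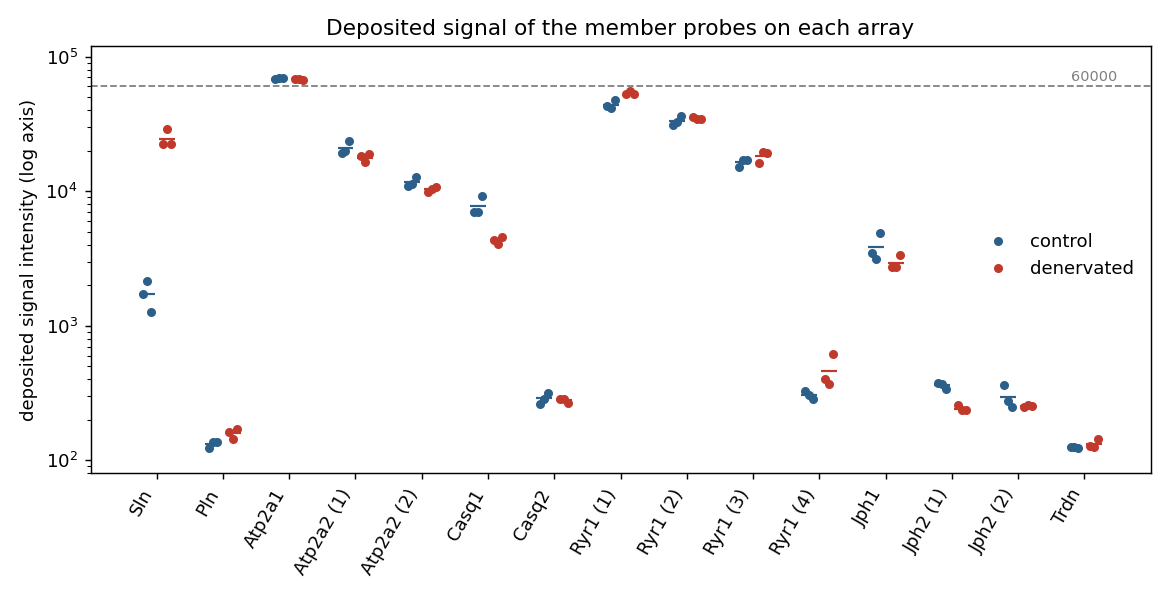
Deposited signal intensity (log axis) of the 15 member probes on the 3 control (blue) and 3 denervated (red) arrays, with group means as bars; numbers in brackets order the probes of a gene from bright to dim. Atp2a1 lies above the dashed line at 60000 on every array, Sln separates the groups most widely, and Pln and Trdn lie at the level of the background.

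The largest change among the members was that of Sln, which encodes sarcolipin, the small inhibitor that binds the pump in its membrane. Its signal was 22514, 28895 and 22399 on the denervated and 1717, 2155 and 1257 on the control arrays (probe ILMN_2918875). The lowest denervated value was far above the highest control value. After normalization, Sln increased from 10.86 ± 0.43 to 14.42 ± 0.24 (log2 signal, mean ± SD, n = 3), a log2 fold change of 3.56 ± 0.22 (± SE, 11.8-fold, 95% interval 3.06 to 4.06, adjusted p = 5.8e-06). It stood at position 20 of 8729 genes ordered from the largest rise. The standard error over beads was 4.11% to 8.29% of the Sln signal on an array.

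The genes whose centred log2 values over the 6 arrays were most like those of Sln were Tgif1, a transcriptional repressor, with a root mean square difference of 0.22, Myog, a myogenic transcription factor (0.26), and Emb, a membrane glycoprotein (0.29). Their log2 fold changes were 3.49, 3.48 and 3.29. With 2 groups of 3 arrays this measure depends largely on the size of the change.

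Pln, which encodes phospholamban, the related inhibitor of slow and cardiac muscle, was not above background on any array. Its deposited signals were 162, 143 and 171 in denervated and 123, 136 and 137 in control muscle, with detection p-values between 0.070 and 0.555. All 3 denervated signals were higher than the control signals, but the denervated arrays were brighter in general, and the normalized values overlapped, at 5.29 to 5.54 against 4.94 to 5.38. The unequal change of the inhibitors could therefore not be tested, and no level of Pln was detectable with this probe.

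The pumps differed in what could be measured. Atp2a1, the pump of fast fibers, gave signals of 68570, 68154 and 66761 in denervated and of 67703, 69509 and 68916 in control muscle (ILMN_2666864). These values overlapped and all exceeded 60000, near the highest signals of the arrays (69263 to 71358), so that neither a change nor its absence can be read from them. The probes of 5 of the 8 fast fiber markers were also near the ceiling in both groups, and 0 of the other 3 were called by their brightest probe. A dimmer probe of Myl1, a fast myosin light chain, was readable and called lower (-0.75 ± 0.14, adjusted p = 0.00333), and 2 dimmer probes of Actn3, the fast fiber alpha-actinin, were at -0.32 and -0.11 and not called.

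Atp2a2, the pump of slow and cardiac muscle and, as another splice form, of the endoplasmic reticulum of most cells, decreased by both of its probes. The brighter probe gave 18147, 16439 and 18758 in denervated and 19086, 19905 and 23692 in control muscle (ILMN_1245425). The denervated signals lay below the control signals with a narrow gap before normalization. The log2 fold change was -0.55 ± 0.12 (95% interval -0.82 to -0.28, 1.46-fold lower, adjusted p = 0.00597). The dimmer probe gave 9813, 10432 and 10789 against 10919, 11370 and 12699 (ILMN_1239742) and decreased by 0.58 ± 0.11 (log2, adjusted p = 0.00345). The 2 probes thus differed by less than their standard errors.

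**Figure D2:**
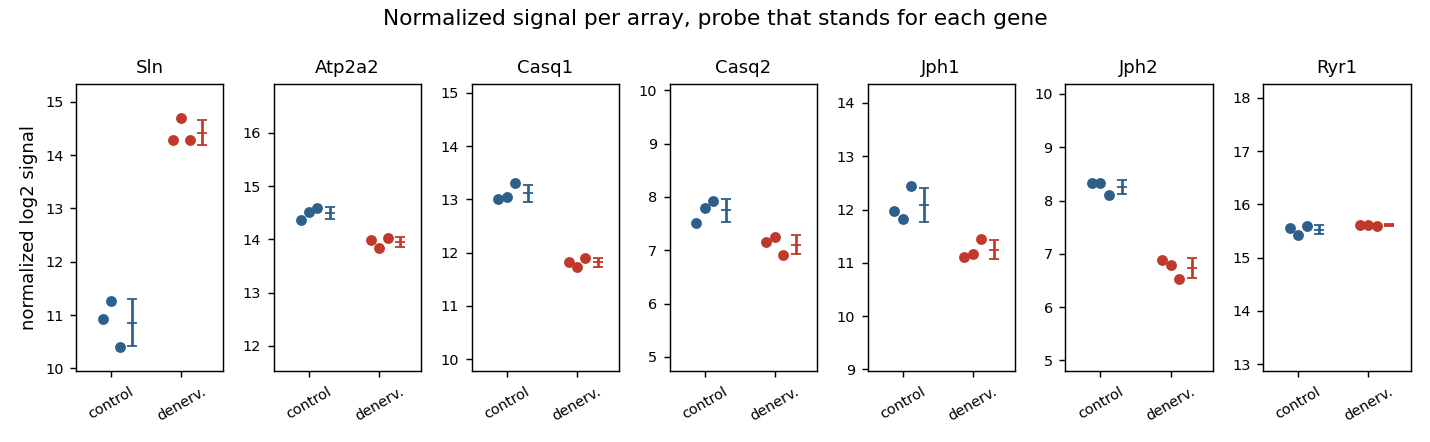
Normalized log2 signal per array for the probe that stands for each gene, controls in blue and denervated muscles in red, with the mean ± SD (n = 3) at the side of the points; every panel spans the same range of log2 units. The groups are apart for all genes shown but Ryr1, with the widest gap in Sln.

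Both luminal calcium buffers among the members decreased, Casq1 by the larger estimate. This calsequestrin of skeletal muscle had signals of 4314, 4054 and 4528 in denervated and of 7001, 6988 and 9166 in control muscle (ILMN_2773330). All denervated values were well below all control values, and control replicate 3 was the highest. The log2 fold change was -1.29 ± 0.12 (2.45-fold lower, 95% interval -1.58 to -1.01, adjusted p = 7.54e-05), position 300 of 8729 genes ordered from the largest fall.

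Casq2, the calsequestrin of cardiac and slow muscle, gave signals of 285, 284 and 267 in denervated and of 263, 287 and 316 in control muscle (ILMN_1247775). Before normalization the groups overlapped. On the normalized log2 scale the values were 7.16, 7.25 and 6.91 against 7.51, 7.80 and 7.93 and no longer overlapped, and the log2 fold change was -0.64 ± 0.15 (adjusted p = 0.00843). The log2 fold change was -0.39 without background correction (adjusted p = 0.00661). With array medians in place of quantiles it was -0.41 and not called (adjusted p = 0.0808), but this scaling moved the median of all probes to 0.20, and Casq2 was at -0.61 relative to that median. With medians over the probes detected on all arrays it was -0.68 and called (adjusted p = 0.00590).

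Whether Casq2 and Casq1 changed unequally was tested within arrays. The log2 signal of Casq2 minus that of Casq1 was higher in denervated muscle by 0.65, with an SD of 0.26 in denervated and 0.12 in control muscle, and the groups did not overlap. The exact permutation test over the 6 arrays gave p = 0.1, two-sided, the smallest value it can reach with 3 against 3, and 0.2 adjusted over the 2 pairs tested. Casq2 was the far dimmer gene of the pair, and the offset understates folds of dim probes. The difference was 0.75 with offset 50 and 0.88 without background correction. Its size therefore depends on the processing, and an unequal change of the 2 genes is not established. The promoter windows printed above belong to this pair, and a link between their letters and these changes was not tested.

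Most slow fiber markers were lower on the same arrays as Atp2a2 and Casq2. Of 7 such markers, 5 were called lower and 1 higher, with a median log2 fold change of -0.83, and their summed signal was 53561 to 57982 in denervated and 74994 to 89152 in control muscle. Ventricular myosin light chains Myl2 (-1.83) and Myl3 (-1.62) and troponin C Tnnc1 (-1.02) showed the largest decreases. Tnnt1 was called higher (0.56, adjusted p = 0.0163) and Tnni1 was not called (0.21), both named outside the rule to complete the count. All 7 were above background on at least 3 arrays, and their part in the change of Atp2a2 and Casq2 was not tested.

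No change of the release channel was called. Ryr1, the ryanodine receptor of skeletal muscle, had 4 probes, and 0 of them were called. The brightest gave 52427, 55690 and 52312 in denervated and 43094, 41356 and 47237 in control muscle (ILMN_2730425). These deposited signals were higher on every denervated array, yet after normalization the values overlapped, with a log2 fold change of 0.08 ± 0.11 (95% interval -0.17 to 0.32, adjusted p = 0.585). On the normalized values of this probe, the interval reached a rise of 0.32 and a fall of 0.17 (log2). Its denervated signals of 52312 to 55690 lay not far below the level taken as near the ceiling. Whether signals at that height still follow the transcript in proportion was not tested, so the interval may not bound a rise. The intervals of the other Ryr1 probes reached further, at -0.36 to 0.14 (ILMN_2733073), -0.49 to 0.12 (ILMN_2842357) and -0.25 to 0.76 (ILMN_1220181).

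A second Ryr1 probe gave 35525, 34091 and 34487 against 30758, 32587 and 36429 (ILMN_2733073, log2 fold change -0.11 ± 0.11) and the next 16127, 19599 and 19319 against 15131, 17047 and 16927 (ILMN_2842357, -0.19 ± 0.13). The groups overlapped for both. The dimmest probe gave 405, 372 and 612 against 328, 306 and 285 (ILMN_1220181, 0.26 ± 0.22, adjusted p = 0.382). Denervated replicate 3 stood above the other arrays here, and without it the log2 fold change was -0.01. One call depended on scaling: with array medians over the probes detected on all arrays, the probe ILMN_2733073 was called lower (-0.45, adjusted p = 0.00975), and the direction of ILMN_2730425 turned (-0.23, adjusted p = 0.126).

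The junctophilins decreased. Jph1, the junctophilin of skeletal muscle, gave 2723, 2747 and 3330 in denervated and 3457, 3115 and 4911 in control muscle (ILMN_1217728). The deposited signals overlapped, since denervated replicate 3 exceeded control replicate 2, but the normalized values did not. The log2 fold change was -0.83 ± 0.18 (95% interval -1.23 to -0.43, adjusted p = 0.00527).

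Jph2, a junctophilin shared by cardiac and skeletal muscle, decreased by both of its probes. Its signals were 256, 236 and 234 in denervated and 376, 369 and 341 in control muscle (ILMN_2628876), with no overlap. The log2 fold change was -1.52 ± 0.14 (2.87-fold lower, adjusted p = 5.04e-05). It was -0.93 without background correction, where Casq1 was at -1.27, so that the order of these 2 genes turned with this setting. The other probe gave 248, 258 and 252 against 361, 276 and 250 (ILMN_2628875), which overlapped before normalization because control replicate 3 was as low as the denervated arrays. After normalization it decreased by 0.93 ± 0.21 (adjusted p = 0.00675), or by 0.55 without background correction. This probe had only 21, 19 and 16 beads on the control arrays, where its log2 SD was 0.43, and both Jph2 probes were dim.

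A difference between the changes of Jph2 and Jph1 was not detected. The within-array log2 difference of Jph2 and Jph1 was -0.69 in denervated relative to control muscle, with an SD of 0.37 and 0.45 and overlapping groups, and it was -0.12 without background correction (exact permutation test, p = 0.2, two-sided, smallest possible 0.1). Trdn, which encodes triadin, was not above background on any array, with signals of 125 to 144 in denervated and 123 to 126 in control muscle and detection p-values between 0.268 and 0.491. Since triadin is a known constituent of the skeletal triad, its probe gives no information on its level here.

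**Figure D3:**
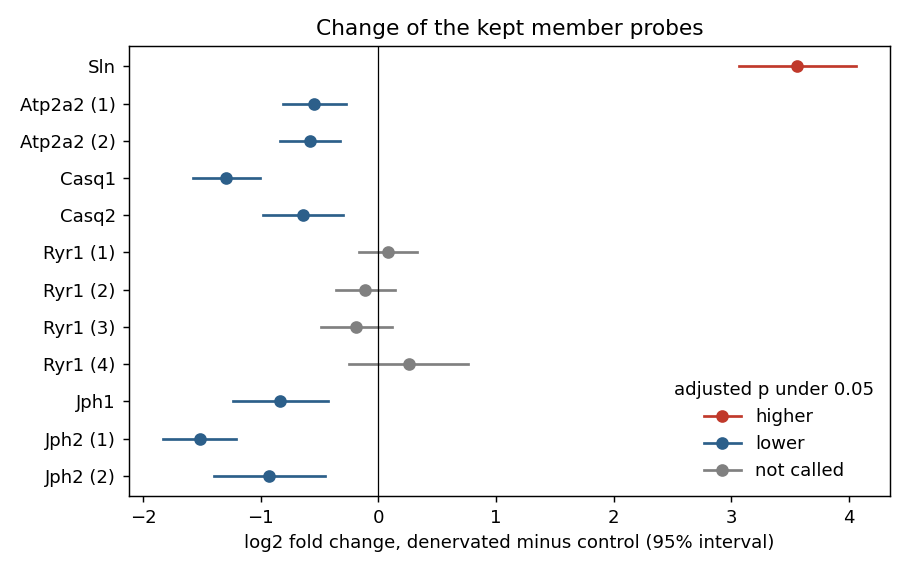
Log2 fold change (denervated minus control) with its 95% interval for the 12 member probes that have a fold, colored by whether the adjusted p was under 0.05. Sln is the 1 probe to the right of 0 that was called, the 4 Ryr1 intervals cross 0, and the 7 probes of Atp2a2, Casq1, Casq2, Jph1 and Jph2 lie to the left.

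Other genes of the calcium cycle moved in both directions. Of 42 measured genes in 7 lists of coupling, release, reticulum, triad, pump, entry and removal genes, 41 had a fold, of which 9 were called higher and 16 lower and 16 were not called. Their median was -0.28, where that of all genes was -0.0033. Of all genes, 22.2% were called higher and 21.6% lower, which is the background for the counts of each list. The share of the listed genes called higher was close to that background, and the share called lower was above it. Parvalbumin, Pvalb, the cytosolic calcium buffer of fast fibers, was near the ceiling in both groups. The lists were written with earlier results of these data known, and their counts are a description.

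Of 6 genes of the voltage sensor and its coupling proteins, 1 was called higher and 2 lower, with a median of -0.36. Cacng1, the gamma subunit of the voltage sensor, rose by 1.82 ± 0.12, whereas Stac3, needed to bring the sensor to the triad (-0.68 ± 0.14), and Jsrp1, which joins the sensor and calsequestrin to the triad (-0.59 ± 0.13), fell. Among other release channels and proteins that bind them, 1 of 7 was called higher and 3 lower (median -0.33). The calmodulin gene Calm2 (-0.96) and S100a1, a calcium-binding activator of the release channel (-0.78), fell and the selenoprotein Selenon, a regulator of the reticulum, rose (0.65). Probes for the release channel genes Ryr2 and Ryr3 were not above background on enough arrays to be tested.

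Of 8 other proteins of the reticulum, 5 were called lower and 1 higher by their brightest probes, with a median of -0.46. One of the lower calls was Asph, the gene of junctin and an aspartyl hydroxylase, whose probes disagreed: the brightest was at -0.34 (adjusted p = 0.0447), another was called higher at 0.35 (adjusted p = 0.0378) and 3 were not called. Hrc, a histidine-rich calcium-binding protein of the lumen, fell by 1.22 ± 0.12 and Srl, the luminal protein sarcalumenin, was at -0.74 ± 0.15 and also called lower. Tmem38b, a subunit of the cation channel that balances charge during calcium release, rose by 1.07 ± 0.13 (1.11 by its other probe), while its muscle paralog Tmem38a, named here after its value was seen, fell by 0.62 ± 0.11.

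Genes that shape the triad and T-tubule membrane were higher in 3 of 4 cases, with a median of 0.55. Dysf, the membrane repair protein dysferlin, rose by 1.37 ± 0.14 (1.11 by its other probe), the membrane-severing dynamin Dnm2 by 0.56 ± 0.13, and Bin1, which bends the T-tubule, by 0.55 ± 0.12, with 1.10 and an uncalled 0.28 by its other probes. The fourth gene was Cav3, the muscle caveolin, which fell by 0.40 and is named outside the rule to complete the count.

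The pump isoform and the kinases that act on pump regulators split. Camk2a, a calcium/calmodulin-dependent kinase, fell by 2.83 ± 0.13 (-2.96 by another probe, while in a further one the denervated group was not above background), Camk2d rose by 1.70 ± 0.11 (1.69 and 1.55 by 2 of its other probes, but 0.00 by the fourth), and Atp2a3, the pump of non-muscle cells, fell by 0.75 ± 0.12. Of the 5 genes in this list 1 was called higher and 2 lower (median -0.04). Of 3 genes of store-operated entry, Orai1, the channel of the surface membrane, was called lower (-0.90 ± 0.18), and Stim1, the calcium sensor of the reticulum, was at -0.08 ± 0.14 and not called. Among 8 genes of calcium removal with a fold, 2 were called higher and 2 lower (median 0.09). The surface pump Atp2b4 (-0.56) and the sodium-calcium exchanger Slc8a1 (-0.48) fell, and Micu2, a regulator of mitochondrial uptake, rose (0.49, and 0.71 by its other probe).

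**Figure D4:**
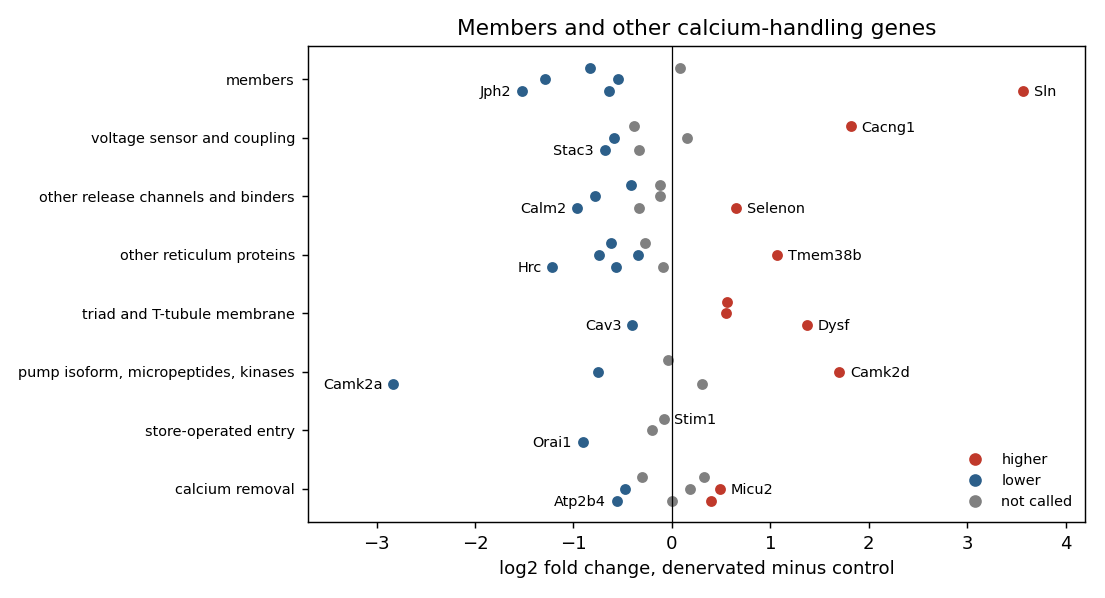
Log2 fold change (denervated minus control) of the 7 members with a fold and of 41 other calcium-handling genes in 7 lists, 1 point per gene by its brightest probe, colored by call. Sln lies farthest to the right of all points shown and Camk2a farthest to the left.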

How the data were processed

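Gene expression in 6 gastrocnemius samples (3 denervated, 3 control) was measured on Illumina MouseRef-8 bead arrays from ribosome-depleted, amplified RNA, and summarized by the authors in GenomeStudio. The deposited columns held, for each probe and array, a linear signal intensity averaged over beads, its standard error, the bead number, and the authors' detection p-value against negative control beads. The deposited intensities were neither background-subtracted nor normalized. A second table of the authors' quantile-normalized intensities served as an alternative only, and 0 columns of sample values were left out.

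Intensities were background-corrected (normexp from the detection p-values, offset 16), quantile-normalized and log2-transformed with limma 3.58.1 in R 4.3.3. Probes with a detection p-value under 0.05 on at least 3 of 6 arrays were kept (12546), and fold changes came from lmFit and eBayes across all of them, two-sided, with p-values adjusted by Benjamini-Hochberg and called under 0.05. The model was tested on simulated data. Because of the offset, folds of dim probes are understated. Each gene is represented by the kept probe that was brightest on average. A signal above 60000 on every array of both groups was taken as near the ceiling and given no fold. The platform annotation named 1 gene for 23978 probes, several for 0 and none for 1719; matching by Entrez number to RefSeq genes (GRCm38.p6) succeeded for 23962 probes and changed 0 symbols. Of the member genes, 6 had a promoter entry. The depth of an array is its bead number (16 to 69 beads for member probes), and only 3 arrays per group limit precision.

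All members are named, and from each other list up to 3 called genes with the largest change, and for Sln the 3 genes nearest in pattern. Named outside this rule were Acta1, Ckm, Pvalb, Ryr2, Ryr3, Asph, Tmem38a, Stim1, Cav3, Tnnt1 and Tnni1, and dimmer probes of Myl1 and Actn3. The members and lists were chosen with earlier results of these data known. Alternatives covered background correction, offset, scaling, filters, moderation, a t-test, the replicate number as a block and leaving out each array.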

Additional observations from a re-analysis of the deposited data

How the results depend on the processing

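Across 17 or 18 alternatives per probe, Sln, Casq1, both Atp2a2 probes and the brighter Jph2 probe kept their direction and call, with log2 fold changes of 3.32 to 3.75 for Sln, -1.37 to -1.10 for Casq1, -0.75 to -0.47 and -0.69 to -0.42 for Atp2a2, and -1.60 to -0.93 for Jph2. Casq2 lost its call with array medians (adjusted p = 0.0808, range over its alternatives 0.00513 to 0.0808), and the t-test per probe lost Jph1 (0.0507) and the dimmer Jph2 probe (0.0652). Of the uncalled Ryr1 probes, 2 changed direction: ILMN_2730425 to -0.23 with medians over probes detected on all arrays, and ILMN_1220181 to -0.0121 without denervated replicate 3 (range over the fits without 1 array -0.0121 to 0.413, and 0.502 with array medians). The former scaling also called ILMN_2733073 (-0.45). The difference of Casq2 and Casq1 was 0.88 without background correction and 0.89 in the authors' quantile-normalized values, and that of Jph2 and Jph1 was -0.125 and -0.132. Leaving out each array gave 0.54 to 0.79 and -0.94 to -0.48. Array medians moved the median of all probes to 0.20 and 73.3% of 5906 calls were higher, against 51.1% of 5377; relative to that median the brightest probes were at 3.52 (Sln), -0.68 (Atp2a2), -1.30 (Casq1), -0.61 (Casq2), -0.83 (Jph1), -1.49 (Jph2) and -0.16 (Ryr1, 0.08 after quantile normalization), and the other Ryr1 probes at -0.38, -0.29 and 0.30. The decrease of Casq1 exceeded that of Jph2 without background correction, with offset 50 (-1.29 and -1.27), in the authors' values (-1.28 and -0.94) and with the mean of all probes of a gene (-1.29 and -1.22). Under the replicate block, 5357 probes were called and no member changed its call. The numbers were not treated as pairs, since the labels do not say that a number marks a mouse. Same-numbered arrays correlated at -0.017, 0.161 and 0.164 in their deviations, and not every array correlated best with its own number. With 3 arrays per group, these correlations cannot decide whether the numbers mark pairs. The t-test called 4145 probes after adjustment and 5731 without. Causes were not tested. Signals near the ceiling (Atp2a1) or background (Pln, Trdn) allow no statement on change.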
